A study of Homo sapiens with 9 samples.

Results

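The permeability transition partners of the mitochondrial chaperone TRAP-1 described here are 7 genes, PPIF, VDAC1, VDAC2, VDAC3, TSPO, MCU and MICU2, out of 22290 genes in the table of the series. They were chosen by name as the genes of cyclophilin D, the voltage-dependent anion channels (VDAC), the translocator protein and the pore and a gatekeeper of the mitochondrial calcium uniporter, and each had a row. The study sequenced RNA of 9 libraries of whole cells labelled IMR-32, a human neuroblastoma line, to compare cells with altered TRAP-1 with their parental cells. The 3 libraries labelled PAR came from parental cells of wild-type genotype, the 3 labelled KD from cells with a TRAP-1 knockdown and the 3 labelled OE from cells with a TRAP-1 overexpression. The engineered cells had been made for earlier work, and how many clones they stand for is not given in the sources used here. Nothing says that the 3 libraries of a group came from separate cultures, so p-values measure the spread between these libraries, which may be technical.

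The permeability transition is a sudden opening of the inner mitochondrial membrane to small solutes under calcium overload and oxidative stress, which collapses the membrane potential and can end in cell death. Cyclophilin D, a peptidyl-prolyl isomerase of the matrix, makes the opening more likely and is the target of cyclosporin A, and TRAP-1 binds it and counters that action. VDAC and the translocator protein sit in the outer membrane and were long placed in models of the pore, and the uniporter brings in the calcium that triggers it.

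The values are regularized log2 values (rlog), which are scaled for library size and drawn toward the mean of each gene. A difference of rlog values can thus be smaller than the log2 fold change of the counts behind it. Such values do not show how deeply a library was sequenced. Taken as a root mean square over the whole table, libraries of the same group were 0.0582 to 0.063 apart (9 pairs) and libraries of different groups 0.137 to 0.255 apart (27 pairs). No library thus lay closer to another group than to its own.

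The label of the cell line was compared with marker genes. Of 10 genes that mark adrenergic neuroblastoma cells, 9 had a row, 2 reached a mean rlog of at least 8 and 3 stayed under 3. The most abundant were ISL1 at 9.29 and GATA2 at 9.20, followed by GATA3 at 7.27, HAND2 at 6.34, CHGB at 5.77 and CHGA at 3.97. MYCN, which is amplified in IMR-32, had a mean rlog of 2.54, PHOX2A of 1.34 and TH, the first enzyme of catecholamine synthesis, of 2.73, while DBH had no row. The adrenergic markers thus ranged from the more abundant genes to the low end of the table. The low MYCN, PHOX2A and TH are unlike what is known of IMR-32, and ISL1 and GATA2 are not. The authors state that the line was authenticated, and the identity of the sequenced cells was not tested here. Some widely expressed genes also lacked a row (ATP5MC1, ATP5PO) or had a very low value (PPIH, mean rlog 0.85), so a missing row or a low value does not by itself show that a gene was silent. Of 7 mesenchymal markers, 5 reached a mean rlog of 8, with VIM at 15.89, FN1 at 13.83, PRRX1 at 12.36, TWIST1 at 9.09 and SNAI2 at 8.68, and COL1A2 stood at 1.37. Of 11 epithelial markers, 8 had a row and 3 reached 8, led by KRT18 at 12.04, while EPCAM was at 2.58 and CDH1 had no row.

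Of 2 Schwann cell markers, SOX10 had no row and S100B was at 11.19 and higher in OE than in parental by 0.29 (adjusted p = 5.1e-13, limma). The 2 measured macrophage markers of 5 were CSF1R at 5.32 and PTPRC at 2.65, and the 1 measured erythroid marker of 4 was HBA1 at 1.27. The summed level of the adrenergic list, as log2, was 10.67, 10.63 and 10.64 in the PAR libraries, 10.53, 10.51 and 10.55 in the KD libraries and 10.54, 10.62 and 10.59 in the OE libraries, lower in every engineered library than in every parental library. In KD, ISL1 (-0.16, adjusted p = 5.3e-05, limma), GATA2 (-0.13, adjusted p = 0.0018, limma), TH, CHGA and CHGB were called lower. MYCN went the other way in KD (0.081, adjusted p = 0.0129, limma). In OE only TH and CHGB of this list were called, both lower, and ISL1 did not pass (adjusted p = 0.187, limma). The sum of the epithelial list was 12.52, 12.52 and 12.51 in PAR, 12.53, 12.57 and 12.59 in KD and 12.39, 12.38 and 12.39 in OE, so that the 3 groups did not overlap. KRT18, its most abundant gene, was lower in OE by a difference of -0.096 (adjusted p = 5.1e-05, limma), and KRT7 was lower in KD by a difference of -0.27 (adjusted p = 3.8e-05, limma). KRT8 was higher than in parental by 0.39 in KD (adjusted p = 7.1e-12, limma) and 0.40 in OE (adjusted p = 1.0e-11, limma), and CLDN4 was lower in OE by a difference of -0.57 (adjusted p = 3.8e-16, limma). The sum of the mesenchymal list was 16.18, 16.18 and 16.18 in PAR, 16.41, 16.41 and 16.40 in KD and 16.46, 16.44 and 16.47 in OE. The mesenchymal sum was higher in every library of either engineered group than in every parental library. Against parental, VIM was higher by 0.36 in KD (adjusted p = 9.6e-26, limma) and 0.15 in OE (adjusted p = 5.1e-15, limma), and PRRX1 by 1.29 (adjusted p = 3.1e-31, limma) and 0.69 (adjusted p = 5.0e-23, limma). TWIST1 was higher by 0.43 in KD (adjusted p = 8.2e-11, limma) and 0.28 in OE (adjusted p = 1.2e-06, limma), and SNAI2 by 0.34 in OE (adjusted p = 6.1e-09, limma). FN1 was higher in OE by 0.55 (adjusted p = 8.2e-26, limma) and went the other way in KD, with a difference of -0.96 (adjusted p = 3.0e-33, limma). The part of these markers in the differences given here was not tested.

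The targeted gene was read first. TRAP1 (ENSG00000126602, chr16:3651639-3717553, minus strand, GRCh38) had rlog values of 10.67, 10.66 and 10.65 in the PAR libraries, 10.79, 10.79 and 10.83 in the KD libraries and 10.67, 10.63 and 10.74 in the OE libraries. All libraries labelled KD lay above all parental libraries, and the libraries labelled OE lay on both sides of them. TRAP1 RNA was higher in the libraries labelled KD than in parental by 0.14 (standard error 0.025, adjusted p = 1.8e-05, limma). In the libraries labelled OE the TRAP1 difference from parental was 0.018 (95% confidence interval -0.033 to 0.069, adjusted p = 0.643, limma). With the median of each 20-Mb block taken off it was 0.069 and passed (adjusted p = 0.029, limma), against adjusted p from 0.029 to 1 over the alternatives with adjustment. Between the engineered groups, which did not overlap, TRAP1 was lower in OE than in KD by a difference of -0.12 (standard error 0.025, adjusted p = 1.5e-04, limma), and by -0.062 with 20-Mb block medians taken off (adjusted p = 0.0387, limma). Holm adjustment ended this call (adjusted p = 0.632), as it did that of KD against parental (adjusted p = 0.0804). TRAP1 thus went against the KD label and against the order of the labels between OE and KD. It did not pass in the direction of the OE label in the deposited values, so KD and OE stand here for the labels of the libraries and not for a TRAP1 level. Of the exonic bases of TRAP1, 28.5% are shared with DNASE1 and a further annotated gene, and DNASE1 was also higher in the libraries labelled KD (difference 0.16, adjusted p = 9.6e-04, limma). The library kit does not mark strand, so reads of the shared bases cannot be told apart.

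PPIF, which encodes cyclophilin D, had the largest difference of the 7 genes in either comparison with parental. The gene (ENSG00000108179) lies at chr10:79347469-79355334 on the plus strand and shares no exonic base with another annotated gene. Its rlog values were 12.38, 12.42 and 12.37 in the PAR libraries, 11.93, 11.93 and 11.93 in the KD libraries and 12.09, 12.14 and 12.14 in the OE libraries. The 3 groups did not overlap, with parental highest, OE between and KD lowest. PPIF was lower in the libraries labelled KD than in parental by a difference of -0.46 (standard error 0.019, 95% confidence interval -0.50 to -0.42, adjusted p = 4.9e-20, limma). In the libraries labelled OE it was lower than in parental by a difference of -0.27 (standard error 0.019, 95% confidence interval -0.30 to -0.23, adjusted p = 2.7e-13, limma). The direct comparison of OE with KD gave 0.19 (standard error 0.019, adjusted p = 1.8e-10, limma). Of all genes, 93.9% had a smaller absolute difference than PPIF between KD and parental and 95.1% between OE and parental. The PPIF RNA was thus lower in both engineered lines, whose TRAP1 RNA was higher or not distinguishable from parental.

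**Figure D1:**
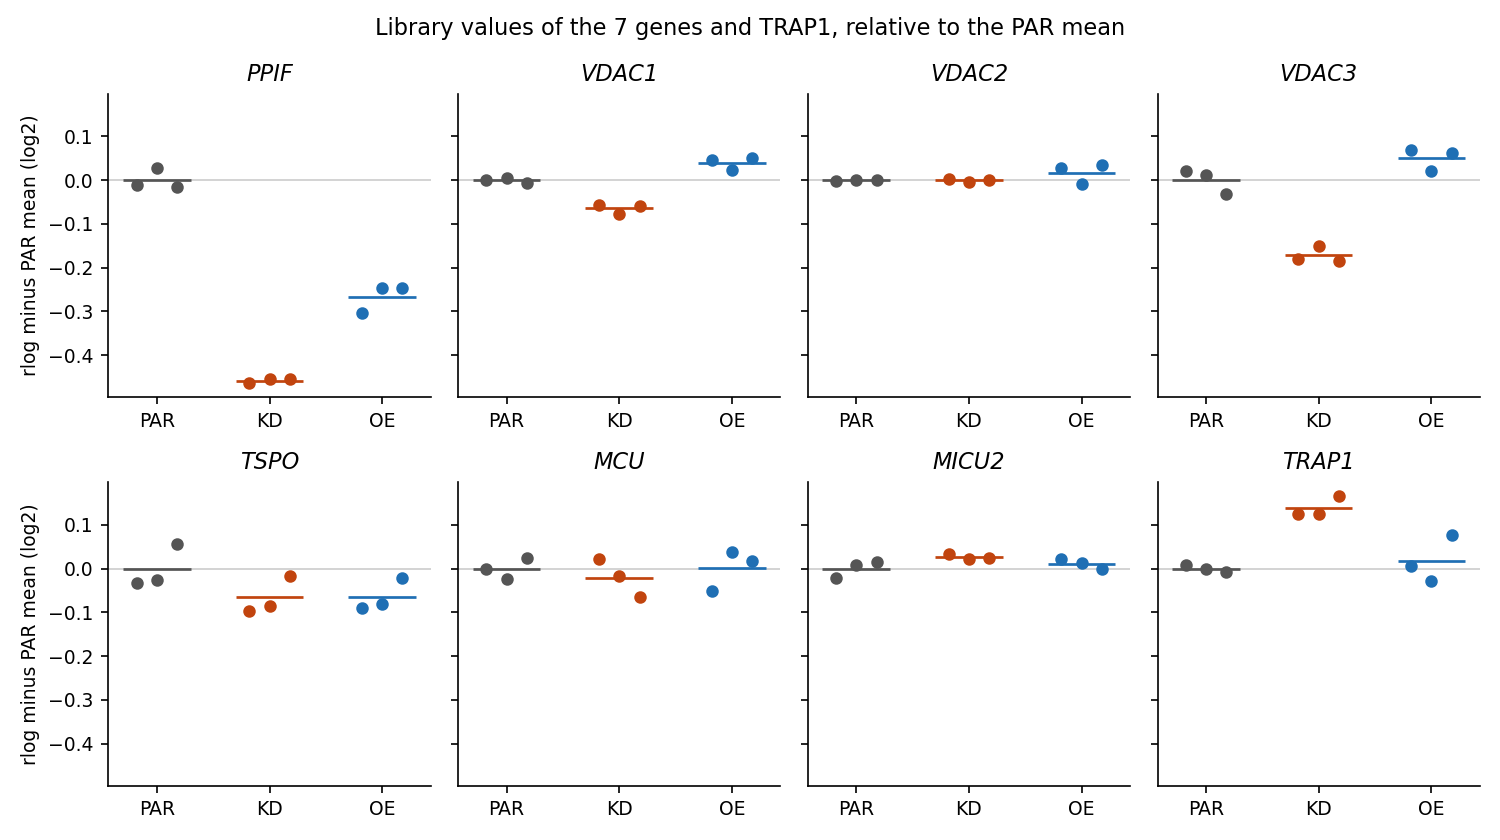
Each point is 1 library of the group on the horizontal axis (PAR, KD or OE, 3 libraries each), the vertical axis is the rlog value minus the PAR mean of that gene (log2), and lines are group means. PPIF lies at -0.46 in KD and -0.27 in OE, and TRAP1 lies above parental in the libraries labelled KD.

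The sequence upstream of the start of 3 members is shown because PPIF and VDAC1 were both lower in the libraries labelled KD, while MCU, on the same arm of chromosome 10 as PPIF, was not called in any comparison. The windows are from RefSeq (GRCh38.p14), hold the 250 bases before the start of the MANE Select transcript, lie outside the exons of their gene and are given 5′ to 3′ on the strand of the gene. They are chr10:79347219-79347468 (plus strand) for PPIF, chr5:134004976-134005225 (minus strand) for VDAC1 and chr10:72691893-72692142 (plus strand) for MCU. Capitals mark matches, on either strand, to 4 motifs chosen after the differences were seen. They are the CCAAT box (letters CCAAT), the GC box (letters GGGCGG), part of the cyclic AMP response element (letters TGACG, not the whole element) and the E-box (letters CACGTG).

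PPIF: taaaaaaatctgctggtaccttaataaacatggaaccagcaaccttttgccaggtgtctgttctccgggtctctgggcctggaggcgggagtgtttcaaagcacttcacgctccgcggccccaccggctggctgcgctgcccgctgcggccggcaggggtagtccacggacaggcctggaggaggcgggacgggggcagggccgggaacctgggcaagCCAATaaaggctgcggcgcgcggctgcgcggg

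VDAC1: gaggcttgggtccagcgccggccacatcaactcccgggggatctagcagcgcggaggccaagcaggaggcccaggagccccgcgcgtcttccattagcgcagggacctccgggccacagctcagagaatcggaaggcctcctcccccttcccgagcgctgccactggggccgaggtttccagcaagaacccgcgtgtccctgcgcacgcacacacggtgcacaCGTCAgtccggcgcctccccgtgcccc

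MCU: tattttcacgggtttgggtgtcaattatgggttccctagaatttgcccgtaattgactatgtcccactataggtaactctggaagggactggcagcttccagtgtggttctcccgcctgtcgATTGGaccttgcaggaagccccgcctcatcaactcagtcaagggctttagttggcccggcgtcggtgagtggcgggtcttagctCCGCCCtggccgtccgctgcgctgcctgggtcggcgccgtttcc

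The PPIF window held 1 CCAAT box and none of the other motifs, and its GC content was 65.2%. The VDAC1 window held 1 match to the letters TGACG, on the opposite strand, at a GC content of 70.0%. The MCU window held 1 CCAAT box and 1 GC box, both on the opposite strand, at a GC content of 58.0%. Among 34943 windows of the same length before annotated starts, 32.0% held a CCAAT box, 42.5% a GC box, 21.2% the letters TGACG and 6.32% an E-box, on either strand. A window at the MANE Select start was found for 6 of the 7 members, and of the 3 not printed those of VDAC2, TSPO and MICU2 reach into exons of their gene. A match describes the letters of a window and a missing match says only that the letters are not in it. PPIF and VDAC1 shared none of the 4 motifs. The window of TSPO, which was also called lower in KD, held 6 GC boxes and, like that of VDAC1, 1 match to the letters TGACG on the opposite strand. That of VDAC2 held 1 GC box on the opposite strand and 1 E-box, and that of MICU2 held 1 GC box.

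The VDAC channels carry metabolites and ions across the outer membrane. VDAC1 (ENSG00000213585, chr5:133971871-134004975, minus strand) had rlog values of 13.88, 13.88 and 13.87 in PAR, 13.82, 13.80 and 13.82 in KD and 13.92, 13.90 and 13.93 in OE. The groups did not overlap, with KD lowest and OE highest. VDAC1 was lower in the libraries labelled KD than in parental by a difference of -0.064 (standard error 0.012, adjusted p = 4.5e-05, limma), and higher in OE than in KD by 0.10 (standard error 0.012, adjusted p = 1.6e-08, limma). Holm adjustment ended the KD call (adjusted p = 0.214, limma), and the difference of OE from KD shrank to 0.066 with 20-Mb block medians taken off (adjusted p = 3.7e-05, limma). The difference of OE from parental was 0.040 (standard error 0.012, adjusted p = 0.012, limma). The OE call ended without the variance trend (adjusted p = 0.0982), with library medians equalised (0.022, adjusted p = 0.193), with 20-Mb block medians taken off (0.0057, adjusted p = 0.762) and under Holm adjustment (adjusted p = 1), over a range of adjusted p from 0.00877 to 1, all from limma.

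VDAC1 has 13 annotated pseudogenes, of which 3 had a row, so reads could be split between copies and its level is uncertain to that extent. The highest was VDAC1P1, with mean rlog values of 8.14 in PAR, 8.04 in KD and 8.14 in OE. Of the exonic bases of VDAC1, 2.95% are shared with an annotated gene that had a mean rlog of 4.38 in PAR, 4.43 in KD and 4.41 in OE.

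VDAC2 (ENSG00000165637, chr10:75210154-75231448, plus strand), which also holds the apoptosis effector BAK at the outer membrane, had rlog values of 11.98, 11.99 and 11.98 in PAR, 11.99, 11.98 and 11.98 in KD and 12.01, 11.97 and 12.02 in OE. The groups overlapped, and OE replicate 2 was the lowest of all 9 libraries. The difference of KD from parental was -0.00069 (95% confidence interval -0.037 to 0.036, adjusted p = 0.978, limma) and that of OE from parental 0.017 (95% confidence interval -0.019 to 0.054, adjusted p = 0.502, limma). VDAC2 has 5 annotated pseudogenes, none of them with a row.

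VDAC3 (ENSG00000078668, chr8:42391624-42405937, plus strand), the least studied of the 3 channels, had rlog values of 11.63, 11.62 and 11.57 in PAR, 11.43, 11.46 and 11.42 in KD and 11.67, 11.63 and 11.67 in OE. All KD libraries lay below all others, and the lowest OE library lay just above the highest parental library, both at 11.63. VDAC3 was lower in KD than in parental by a difference of -0.17 (standard error 0.021, 95% confidence interval -0.21 to -0.13, adjusted p = 1.2e-08, limma) and higher in OE than in KD by 0.22 (standard error 0.021, adjusted p = 6.4e-11, limma). The difference of OE from parental, 0.051 (standard error 0.021), did not pass (adjusted p = 0.0538, limma). It passed with a floor on the mean rlog (adjusted p = 0.0271), with quantile normalization (0.077, adjusted p = 0.00379), without PAR replicate 1 (0.062, adjusted p = 0.0423) and without OE replicate 2 (0.065, adjusted p = 0.0293), over a range of adjusted p from 0.00379 to 1, all from limma. It shrank to 0.0098 with 20-Mb block medians taken off (adjusted p = 0.751, limma) and to 0.033 with library medians equalised (adjusted p = 0.237, limma). VDAC3 has 1 annotated pseudogene, which had no row.

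TSPO, the translocator protein of the outer membrane and the peripheral binding site of benzodiazepines, lies at chr22:43151547-43163242 on the plus strand (ENSG00000100300). Its rlog values were 11.26, 11.27 and 11.35 in PAR, 11.20, 11.21 and 11.28 in KD and 11.20, 11.21 and 11.27 in OE. The library with replicate number 3 was the highest in each group, and through these libraries both engineered groups overlapped parental. TSPO was lower than in parental by a difference of -0.066 in KD (standard error 0.025, adjusted p = 0.0281, limma) and of -0.064 in OE (standard error 0.025, adjusted p = 0.0468, limma), and OE differed from KD by 0.0015 (adjusted p = 0.968, limma). The call in KD ended without PAR replicate 3 (-0.037, adjusted p = 0.252), without KD replicate 1 (-0.051, adjusted p = 0.14) and without KD replicate 2 (-0.056, adjusted p = 0.115), all from limma. The call in OE ended without PAR replicate 3 (-0.036, adjusted p = 0.341), without KD replicate 2 (adjusted p = 0.0575), without OE replicate 1 (-0.052, adjusted p = 0.176) and without OE replicate 2 (-0.056, adjusted p = 0.158), all from limma. In all, the KD call of TSPO ended under 7 and its OE call under 9 of the 18 alternatives, among them quantile normalization, 20-Mb block medians taken off and a fit without the variance trend. With the replicate number as a block in the fit, both calls stayed, at a standard error of 0.0206. The adjusted p was then 0.00642 for KD and 0.0121 for OE (limma). TSPO2, its erythroid relative, had no row.

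MCU (ENSG00000156026, chr10:72692143-72887694, plus strand) encodes the pore of the calcium uniporter. Its rlog values were 9.85, 9.83 and 9.88 in PAR, 9.88, 9.84 and 9.79 in KD and 9.80, 9.89 and 9.87 in OE. The 3 groups overlapped fully. The difference from parental was -0.021 in KD (95% confidence interval -0.081 to 0.039, adjusted p = 0.589, limma) and 0.0013 in OE (95% confidence interval -0.059 to 0.061, adjusted p = 0.983, limma).

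MICU2 (ENSG00000165487, chr13:21492691-21604181, minus strand) encodes a calcium sensor that helps to keep the uniporter closed at low calcium. Its rlog values were 11.56, 11.59 and 11.59 in PAR, 11.61, 11.60 and 11.60 in KD and 11.60, 11.59 and 11.58 in OE. The KD libraries lay just above all parental libraries, and the OE libraries overlapped them. The difference from parental was 0.027 in KD (95% confidence interval -0.012 to 0.065, adjusted p = 0.252, limma) and 0.011 in OE (95% confidence interval -0.027 to 0.050, adjusted p = 0.702, limma). With 20-Mb block medians taken off, MICU2 was called higher in KD than in parental (0.083, adjusted p = 3.4e-04, limma) and lower in OE than in KD (-0.081, adjusted p = 5.3e-04, limma), against adjusted p up to 1 under other alternatives. Its direction in the block-corrected values was the same as in the deposited values.

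**Figure D2:**
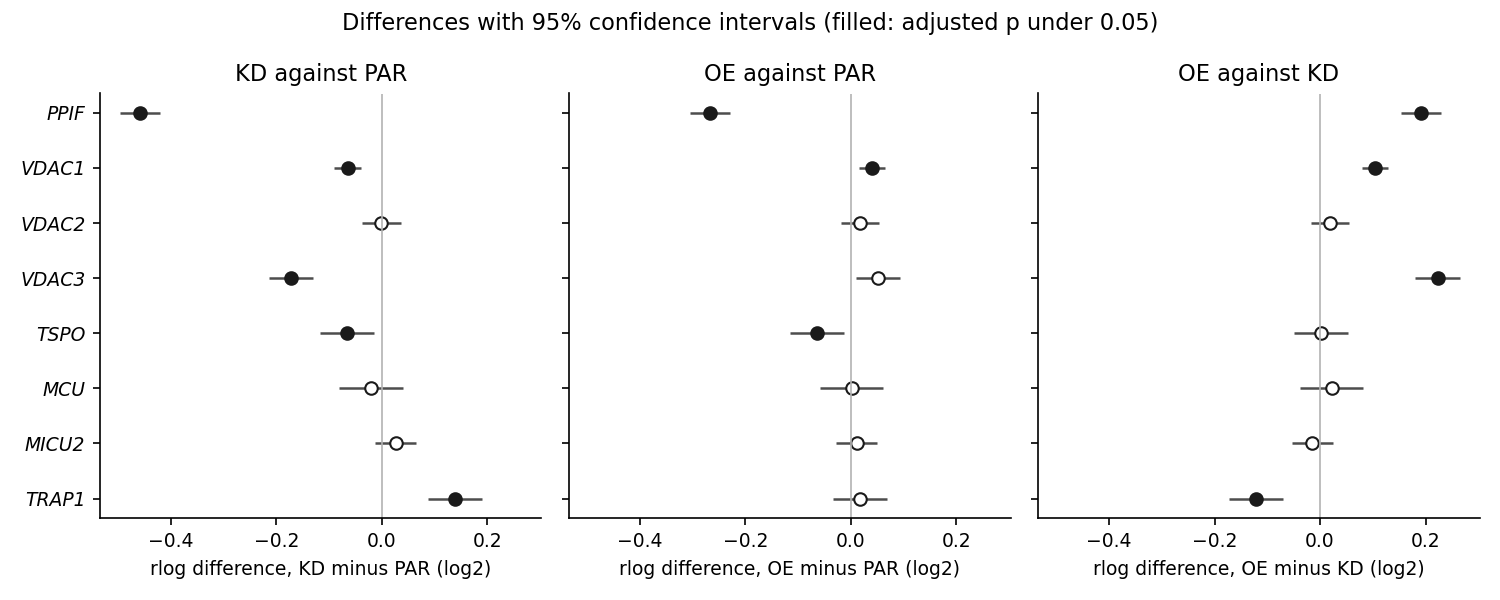
Points are differences of group means in rlog value (log2, horizontal axis) for each gene (vertical axis) in the 3 comparisons, bars are 95% confidence intervals from limma over 9 libraries, and filled points have an adjusted p under 0.05. PPIF stands at -0.46 for KD and -0.27 for OE against parental, while VDAC2, MCU and MICU2 lie near 0 in all panels.

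Counted together, 4 of the 7 genes were called between the libraries labelled KD and parental at an adjusted p under 0.05, against 53.7% of all 22290 genes. All 4 (PPIF, VDAC1, VDAC3 and TSPO) were lower and 0 were higher, where 26.9% of all genes were called lower and 26.9% higher. Between OE and parental 3 of the 7 were called, against 34.8% of all genes. Of these, VDAC1 was higher, where 16.9% of all genes were called higher, and PPIF and TSPO were lower, where 18.0% of all genes were called lower. Over all genes, 3762 were called higher and 4002 lower in OE, and with library medians equalised this split moved to 2963 and 5212. Between OE and KD 3 of the 7 were called, PPIF, VDAC1 and VDAC3, all higher in OE, against 47.3% of all genes called in either direction. Of all 22290 genes, 5237 were called higher and 5315 lower in OE than in KD.

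All 7 genes are among the more abundant, with a mean rlog of at least 9, a level that 8542 genes reached. Of those, 76.6% were called between KD and parental, 57.9% between OE and parental and 68.9% between OE and KD, so the share of the members called was not above that of genes of such levels. The median difference over the 7 genes was -0.064 for KD and 0.011 for OE against parental, and 0.022 for OE against KD. The same over all genes was -0.00051, 0.00039 and 0.00078, and over the 8542 abundant genes -0.0098, -0.013 and -0.0023. The comparisons with parental share the PAR libraries and are not independent.

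Levels of different genes were compared per kb of exon. As log2 level per kb over all annotated exons, the parental means were 12.27 ± 0.0053 (SD, n = 3) for VDAC1, 10.97 ± 0.023 (SD, n = 3) for PPIF, 10.78 ± 0.050 (SD, n = 3) for TSPO and 10.50 ± 0.0011 (SD, n = 3) for VDAC2. They were 9.94 ± 0.028 (SD, n = 3) for VDAC3, 9.73 ± 0.019 (SD, n = 3) for MICU2 and 7.68 ± 0.024 (SD, n = 3) for MCU, with TRAP1 at 8.29 ± 0.0084 (SD, n = 3). Each neighbouring pair in this order was apart by more than the spread of the parental libraries. In KD, PPIF at 10.51 ± 0.0056 (SD, n = 3) lay below TSPO at 10.72 ± 0.044 (SD, n = 3) and came close to VDAC2 at 10.50 ± 0.0030 (SD, n = 3). In OE, PPIF at 10.71 ± 0.033 (SD, n = 3) and TSPO at 10.72 ± 0.037 (SD, n = 3) did not differ beyond their spread.

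The order depends on the length used. Per kb of the MANE Select transcript, a length chosen after the data were seen, the parental level was 13.00 for VDAC1, 11.55 for TSPO, 11.39 for VDAC2, 11.26 for PPIF, 11.10 for VDAC3, 10.66 for MICU2, 9.51 for TRAP1 and 8.30 for MCU. PPIF moved from behind VDAC1 to behind VDAC2, while VDAC1 remained the highest and MCU the lowest under either length.

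**Figure D3:**
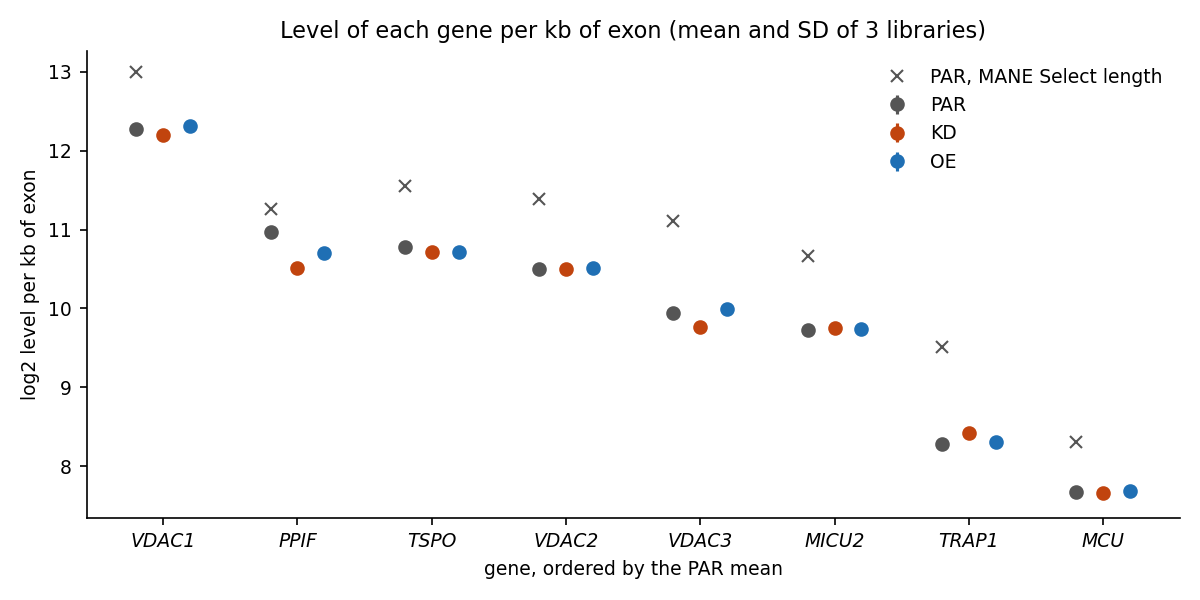
Points are mean log2 levels per kb of annotated exon (vertical axis) for each gene (horizontal axis, ordered by the PAR mean) in PAR, KD and OE, with bars for the SD of 3 libraries, which are mostly smaller than the points; crosses use the MANE Select length in PAR. VDAC1 is highest at 12.27 and MCU lowest at 7.68 in PAR.

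Shares of the summed level of the 3 VDAC genes were taken per kb of all annotated exons and depend on that length. The SD does not cover this, and shares per kb of the MANE Select transcript were not computed. VDAC1 made up 67.0% ± 0.11 (SD, n = 3) of the sum in PAR, 67.1% ± 0.24 (SD, n = 3) in KD and 67.2% ± 0.15 (SD, n = 3) in OE. VDAC2 made up 19.6% ± 0.095 (SD, n = 3) in PAR, 20.5% ± 0.036 (SD, n = 3) in KD and 19.4% ± 0.084 (SD, n = 3) in OE. VDAC3 made up 13.3% ± 0.20 (SD, n = 3) in PAR, 12.4% ± 0.21 (SD, n = 3) in KD and 13.4% ± 0.084 (SD, n = 3) in OE. The share of VDAC1 overlapped between all groups. In KD the share of VDAC3 was smaller and that of VDAC2 larger in each library than in any parental library. In OE the share of VDAC2 was smaller in each library than in any parental library. The sum itself, as log2, was 12.85 ± 0.0071 (SD, n = 3) in PAR, 12.78 ± 0.0053 (SD, n = 3) in KD and 12.88 ± 0.018 (SD, n = 3) in OE.

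The balance of gatekeeper and pore was read as the rlog value of MICU2 minus that of MCU, a difference between genes that is not corrected for length. It was 1.70, 1.76 and 1.71 in PAR, 1.74, 1.76 and 1.81 in KD and 1.80, 1.70 and 1.71 in OE. The groups overlapped. The rlog value of PPIF minus that of VDAC1, a pair chosen after the data were seen, was -1.50, -1.46 and -1.50 in PAR, -1.89, -1.87 and -1.88 in KD and -1.84, -1.76 and -1.78 in OE. Here every library of both engineered groups lay below every parental library.

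PPIF, VDAC2 and MCU lie on the long arm of chromosome 10, with the start of PPIF 4.14 Mb from that of VDAC2 and 6.66 Mb from that of MCU. Among the 29 other genes of a mean rlog not under 5 that start within 5 Mb of PPIF, the median difference between KD and parental was 0.0050, with 14 lower and 15 higher. Between OE and parental it was 0.021, with 13 lower and 16 higher. None of the 29 had a difference as low as that of PPIF in either comparison, though KCNMA1 came close in OE, at -0.26 against -0.27 for PPIF, a gap smaller than the standard error. In the stretch from MCU to PPIF, which holds 38 such genes with both of them, 18 were lower and 20 higher in KD and 20 lower and 18 higher in OE.

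Around VDAC1 the 57 neighbours had a median difference of -0.0030 in KD and 0.015 in OE against parental. Around VDAC3 the 41 neighbours had medians of -0.029 and 0.047, and 27 of them were higher in OE, next to a VDAC3 difference of 0.051 in OE. The medians around VDAC2 (62 neighbours), TSPO (97), MCU (73) and MICU2 (41) lay between -0.0087 and 0.0032 in both comparisons with parental. Around TRAP1 the median over 139 neighbours was 0.011 in KD and -0.056 in OE, where 92 were lower.

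**Figure D4:**
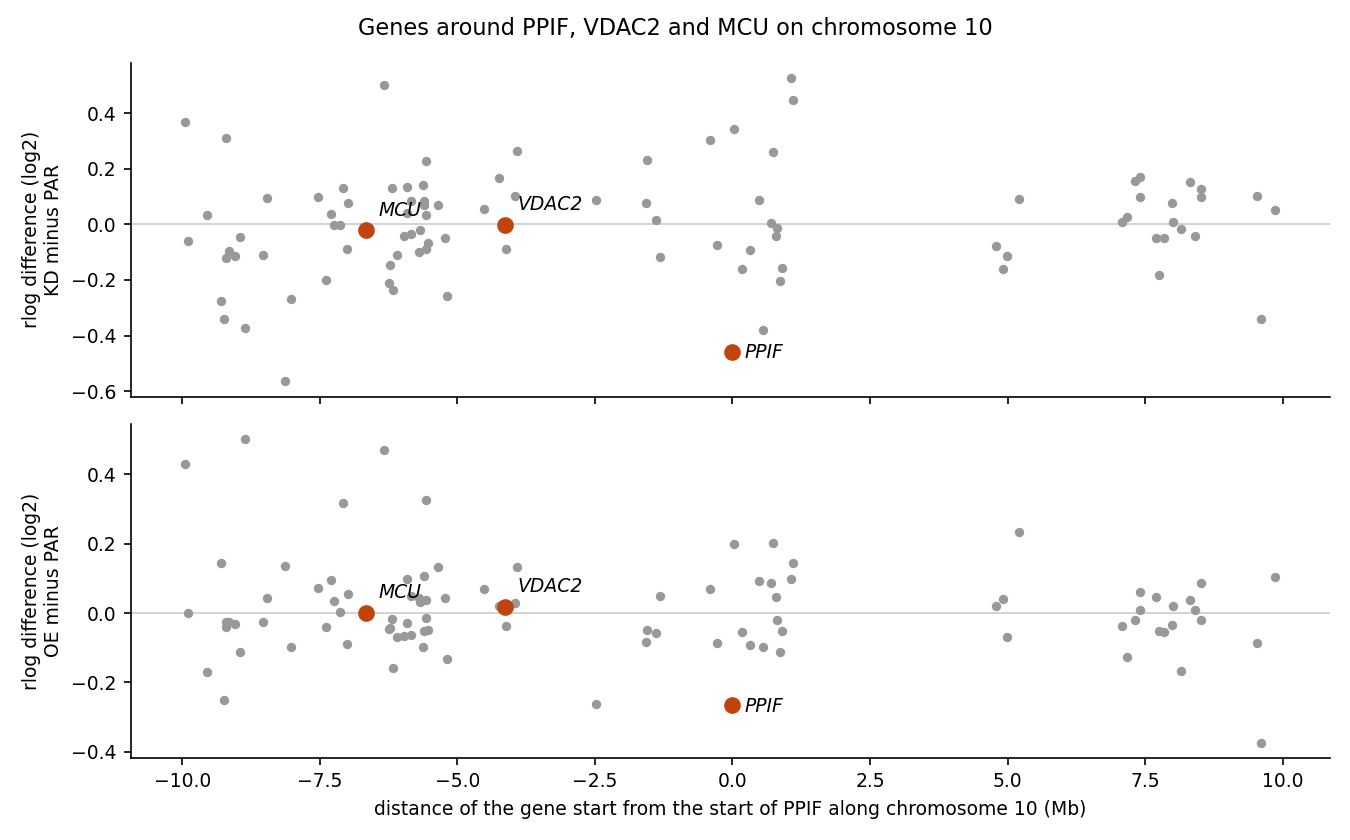
Each point is a gene with a mean rlog of at least 5, placed by the distance of its start from the start of PPIF along chromosome 10 (Mb, horizontal axis), with its rlog difference (log2, vertical axis) for KD minus PAR (upper) and OE minus PAR (lower). PPIF lies at -0.46 and -0.27, the lowest within 5 Mb though close to KCNMA1 in the lower panel, while VDAC2 and MCU lie near 0.

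The other genes of the pathway were followed in 6 lists. Of 65 genes listed, 57 had a row. Between KD and parental 18 were called higher and 22 lower, with a median difference of -0.0080, and between OE and parental 17 were higher and 18 lower, with a median of 0.012. Over all genes 53.7% were called in KD and 34.8% in OE, with medians of -0.00051 and 0.00039.

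Of the uniporter complex and matrix calcium transport, all 7 genes had a row. In KD 2 were higher (MICU3 and MCUB), 3 lower (SLC8B1, LETM1 and GHITM) and 2 not called, with a median of -0.056, and in OE 1 was higher (MICU3) and 4 lower (MCUB, MCUR1, SLC8B1 and LETM1), with a median of -0.11. MICU3, a uniporter regulator known from brain and muscle, went from 8.14 ± 0.013 (SD, n = 3) in PAR to 8.35 ± 0.043 (SD, n = 3) in KD and 8.35 ± 0.037 (SD, n = 3) in OE, by 0.20 (adjusted p = 1.8e-05, limma) and 0.21 (adjusted p = 2.2e-05, limma). LETM1, a cation exchanger of the inner membrane, was lower by differences of -0.22 (adjusted p = 1.5e-12, limma) and -0.20 (adjusted p = 4.1e-11, limma). SLC8B1, which encodes the sodium-calcium exchanger that exports matrix calcium, was lower by differences of -0.21 (adjusted p = 1.4e-05, limma) and -0.15 (adjusted p = 0.00258, limma).

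MCUB, a paralog that lowers the activity of the pore, was higher in KD by 0.077 (adjusted p = 0.0127, limma) and lower in OE by a difference of -0.11 (adjusted p = 6.2e-04, limma). With 20-Mb block medians taken off, the MCUB difference in KD turned to -0.028 (adjusted p = 0.376, limma), and its call also ended without KD replicate 2 (0.059, adjusted p = 0.0931, limma). SMDT1, which encodes the small subunit that joins pore and gatekeepers, was at 9.07 ± 0.010 (SD, n = 3) in PAR, 9.06 ± 0.020 (SD, n = 3) in KD and 9.07 ± 0.029 (SD, n = 3) in OE and was not called.

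Of the pore candidates of the inner membrane, 12 of 14 had a row. In KD 3 were higher (SLC25A6, ATP5MC2 and CNP) and 4 lower (SLC25A4, SLC25A31, SLC25A3 and SPG7), with a median of -0.010, and the 7 called became 11 with 20-Mb block medians taken off. The KD call of SLC25A3 (-0.051) ended under 2 of the 18 alternatives, among them quantile normalization, at a difference as small as -0.020. In OE 6 were higher and 2 lower (SLC25A4 and SPG7), with a median of 0.046, and 5 of the 6 were ATP synthase genes or the phosphate carrier SLC25A3. The OE call of SLC25A3 (0.033) ended under 6 of the 18 alternatives, among them library medians equalised (0.015, adjusted p = 0.368, limma), 20-Mb block medians taken off (0.0097, adjusted p = 0.539, limma) and leaving out PAR replicate 3 or OE replicate 1. The OE call of SPG7 ended with 20-Mb block medians taken off (-0.035, adjusted p = 0.154, limma). The adenine nucleotide translocases, which exchange ADP for ATP and can form a channel, did not move as a group. SLC25A4 was lower by differences of -0.21 in KD (adjusted p = 3.6e-10, limma) and -0.092 in OE (adjusted p = 8.9e-04, limma). Its OE call ended under 1 of the 18 alternatives, at an unchanged difference. SLC25A6 was higher in KD by 0.19 (adjusted p = 1.6e-10, limma) and differed in OE by 0.028 (adjusted p = 0.282, limma). SLC25A5 was at 14.10 ± 0.027 (SD, n = 3) in PAR, 14.10 ± 0.0089 (SD, n = 3) in KD and 14.11 ± 0.021 (SD, n = 3) in OE and was not called. With 20-Mb block medians taken off, SLC25A5 turned to -0.067 in both comparisons and was called (adjusted p = 8.1e-05 and 1.9e-04, limma). SLC25A31, the germ cell form, had a low level in PAR of 5.35 ± 0.093 (SD, n = 3) and was lower in KD by a difference of -0.57 (adjusted p = 1.4e-11, limma).

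Of the outer membrane partners of VDAC and TSPO, 7 of 13 had a row. In KD 3 were higher (HK1, HK2 and GSK3B) and 2 lower (BAX and DBI), with a median of 0.0034, and in OE 4 were higher (HK1, HK2, GSK3B and DBI) and 1 lower (BAX), with a median of 0.063. HK2, the hexokinase that docks on VDAC in many tumours, rose from 12.73 ± 0.0026 (SD, n = 3) in PAR to 13.22 ± 0.013 (SD, n = 3) in KD and 13.12 ± 0.022 (SD, n = 3) in OE, by 0.48 (adjusted p = 3.8e-23, limma) and 0.39 (adjusted p = 7.5e-20, limma). HK1, the other hexokinase that binds VDAC, rose by 0.45 (adjusted p = 4.4e-23, limma) and 0.28 (adjusted p = 8.6e-17, limma). Both hexokinase genes were thus higher in both engineered groups, beside VDAC1 differences of -0.064 and 0.040. GSK3B, a kinase reported to act on VDAC, rose by 0.36 in KD (adjusted p = 8.8e-19, limma) and 0.063 in OE (adjusted p = 0.00242, limma), where the difference shrank to 0.022 and the call ended with 20-Mb block medians taken off (adjusted p = 0.304, limma). BAX, which permeabilizes the outer membrane in apoptosis, was lower by differences of -0.33 in KD (adjusted p = 3.0e-15, limma) and -0.26 in OE (adjusted p = 4.7e-12, limma). DBI, the endogenous ligand of TSPO, differed by -0.065 in KD (adjusted p = 0.0179, limma) and by 0.095 in OE (adjusted p = 0.00141, limma). The KD call of DBI ended under 7 of the 18 alternatives, among them 20-Mb block medians taken off (-0.026, adjusted p = 0.345, limma), quantile normalization (-0.055, adjusted p = 0.0544, limma) and leaving out PAR replicate 1, PAR replicate 2 or KD replicate 2.

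**Figure D5:**
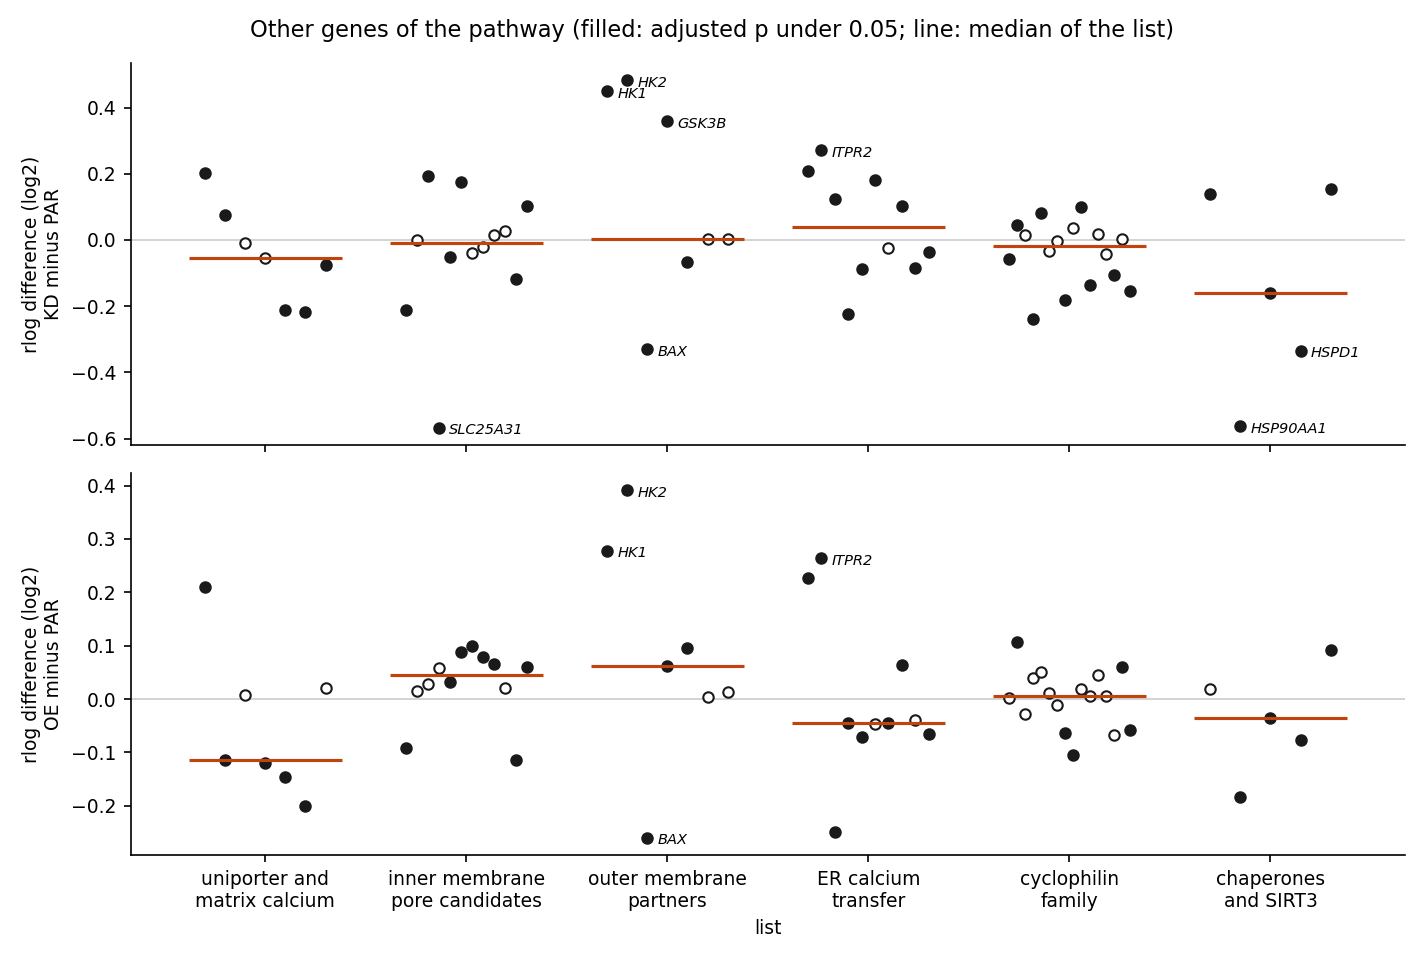
Each point is a gene of the list on the horizontal axis with its rlog difference (log2, vertical axis) for KD minus PAR (upper) and OE minus PAR (lower), filled where the adjusted p was under 0.05 (limma), and lines are the median of each list. HK1 and HK2 lie above 0 in both panels, at 0.45 and 0.48 in KD, and HSP90AA1 lies lowest among the chaperones at -0.56 in KD.

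All 10 genes of the transfer of calcium from the endoplasmic reticulum had a row, and in KD 5 were higher (ITPR1, ITPR2, ITPR3, PACS2 and VAPB) and 4 lower (HSPA9, PDZD8, RMDN3 and ATP2A2), with a median of 0.039. In OE 3 were higher (ITPR1, ITPR2 and VAPB) and 5 lower (ITPR3, HSPA9, PDZD8, MFN2 and ATP2A2), with a median of -0.046, and the 8 called became 5 without the variance trend. The OE calls of MFN2 and VAPB ended under 7 and 5 of the 18 alternatives, and that of HSPA9 under 3. The KD call of ATP2A2 ended under 5. The inositol trisphosphate receptors release the calcium that reaches VDAC1. ITPR1 rose by 0.21 in KD (adjusted p = 2.1e-07, limma) and 0.23 in OE (adjusted p = 1.3e-07, limma), and ITPR2 rose by 0.27 (adjusted p = 7.2e-11, limma) and 0.26 (adjusted p = 4.4e-10, limma). ITPR3 was higher in KD by 0.12 (adjusted p = 1.6e-07, limma) and lower in OE by a difference of -0.25 (adjusted p = 1.2e-13, limma). HSPA9, the chaperone that links these receptors to VDAC1, was lower in KD by a difference of -0.22 (adjusted p = 4.8e-17, limma). The ATP2A2 difference in KD, -0.038, turned to 0.0083 with quantile normalization, and ITPR1 between OE and KD turned from 0.017 to -0.28 with 20-Mb block medians taken off. The ITPR1 differences from parental thus cannot both keep the values above under that setting.

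The 16 relatives of cyclophilin D in the cyclophilin family all had a row. In KD 3 were higher (PPIB, PPIE and PPIL3) and 6 lower (PPIA, PPID, PPIL1, PPIL4, NKTR and RANBP2), with a median of -0.018, and in OE 2 were higher (PPIB and CWC27) and 3 lower (PPIL1, PPIL2 and RANBP2), with a median of 0.0052. PPID, a cyclophilin that works with Hsp90, was lower in KD by a difference of -0.24 (adjusted p = 4.4e-10, limma) and differed in OE by 0.040 (adjusted p = 0.232, limma). PPIL1, a spliceosomal cyclophilin, was lower in KD by a difference of -0.18 (adjusted p = 2.1e-07, limma), and RANBP2, a nucleoporin with a cyclophilin domain, by a difference of -0.15 (adjusted p = 1.6e-09, limma). The OE call of PPIL1 ended under 11 of the 18 alternatives and that of CWC27 under 9, and the KD calls of PPIB and PPIL3 ended under 7 and 4. The OE call of RANBP2 ended with 20-Mb block medians taken off (-0.014, adjusted p = 0.555, limma) and with quantile normalization (-0.038, adjusted p = 0.0884, limma). None of the 16 had an absolute difference as large as that of PPIF in either comparison with parental. NKTR, at a mean rlog of 2.57, turned from -0.11 to 0.16 in KD against parental and from 0.038 to -0.24 in OE against KD with 20-Mb block medians taken off. The count of the OE comparison moved from 5 to 3 without PAR replicate 1, PAR replicate 3, KD replicate 2, OE replicate 1 or OE replicate 2.

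The chaperones and the deacetylase that bind or act on cyclophilin D numbered 5 with TRAP1, and all had a row. In KD 2 were higher (TRAP1 and SIRT3) and 3 lower (HSP90AA1, HSP90AB1 and HSPD1), with a median of -0.16, and in OE 1 was higher (SIRT3) and 3 lower (the same Hsp90 and Hsp60 genes), with a median of -0.036. HSP90AA1, the inducible cytosolic Hsp90, had mean rlog values of 17.67 ± 0.016 (SD, n = 3) in PAR, 17.10 ± 0.014 (SD, n = 3) in KD and 17.48 ± 0.022 (SD, n = 3) in OE, lower by differences of -0.56 (adjusted p = 3.1e-31, limma) and -0.18 (adjusted p = 1.5e-17, limma). With quantile normalization its OE difference was 0, since it held the same rank in those libraries. HSPD1, the matrix chaperonin Hsp60, was lower by differences of -0.33 (adjusted p = 1.8e-23, limma) and -0.076 (adjusted p = 2.1e-07, limma), and HSP90AB1 by differences of -0.16 (adjusted p = 1.3e-16, limma) and -0.036 (adjusted p = 0.00129, limma). Quantile normalization also ended the OE call of HSP90AB1 (adjusted p = 1, limma), as did a fit without the variance trend (adjusted p = 0.157, limma), and the 4 genes of the list called in OE became 2 with quantile normalization. SIRT3, the matrix deacetylase that acts on cyclophilin D, was higher by 0.15 (adjusted p = 4.3e-05, limma) and 0.091 (adjusted p = 0.0149, limma), and its OE call ended with library medians equalised (0.073, adjusted p = 0.0532, limma), without PAR replicate 1 (0.083, adjusted p = 0.0585, limma) and without OE replicate 2 (0.076, adjusted p = 0.0859, limma).

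Likeness to each member was measured as the root mean square difference over the 9 libraries of rlog values relative to the parental mean, among 13080 genes that have a symbol and reach a mean rlog of 5. Closest to PPIF were ZNF367 and NF2, both at 0.027, with differences of -0.47 and -0.48 in KD and -0.28 and -0.24 in OE. Closest to VDAC1 were UBB at 0.010 and HNRNPA2B1 at 0.012, and closest to VDAC3 were MTMR14 at 0.021 and ZNF614 at 0.022. For TSPO they were C18orf21 at 0.018 and FOXP4 at 0.021. VDAC2 was most like IK at 0.011 and SMDT1 at 0.012, MCU most like UQCC6 at 0.021 and HECTD4 at 0.023, and MICU2 most like NEK7 at 0.0092 and ANKRD10 at 0.0094. Closest to TRAP1 were MDH2 at 0.019 and AGTRAP at 0.020.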

How the data were processed

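Total RNA of 9 samples was made into libraries (TruSeq RNA Library Prep Kit v2, which does not mark strand) and sequenced. According to the authors, reads were trimmed (cutadapt), aligned to GRCh38 (HISAT2) and summed for each gene (featureCounts), genes with few counts were dropped, and the authors made the rlog values with DESeq2. Tool versions and the annotation release are not given in the sources used here. The deposited values are on a log2 scale, and a further 3 columns were empty. Depth is unknown from them.

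Ensembl IDs were matched to symbols (22195 of 22290) and to GENCODE release 44 on GRCh38. Differences between groups were tested with limma 3.58.1 (R 4.3.3) in 9 libraries together with a variance trend and Benjamini-Hochberg adjustment over 22290 genes, and a gene was called at an adjusted p under 0.05. The step was tested on simulated data of 22290 genes, in which KD differed from PAR in known genes. It called 98 of 100 genes shifted by 0.3 and 31 of 100 shifted by 0.1, with 5 false calls. No other gene was shifted there, whereas 53.7% of all genes were called for KD against PAR in the data. The simulated counts thus do not give the share of differences missed or falsely called here. Members and lists were chosen with earlier results of these data known. Named from each list were up to 3 genes with the largest absolute difference among those called, and TSPO2, MICU3, MCUB, SMDT1, SLC25A4, SLC25A5, SLC25A6 and HK2 whatever their value. Genes named to fill a count of 5 or fewer, or because an alternative turned their sign, and BAX, DBI, HSPA9 and SIRT3 where their values are given, were chosen after values were seen. Alternatives were no trend, a floor of 5 on the mean rlog, 2 scalings, 2 groups only, each library left out, a replicate block, 20-Mb block medians removed, Holm adjustment and, added after the data were seen, an unadjusted p. Promoter sequences are from RefSeq (GRCh38.p14). Listed genes without a row are not analysed here, and some listed genes are not reported here and were left out of the lists, their counts and their medians. Figures were drawn with matplotlib 3.10.9.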

Additional observations from a re-analysis of the deposited data

How the results depend on the processing

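The differences of PPIF in all 3 comparisons, of VDAC3 in KD against PAR and OE against KD, and of VDAC1 in OE against KD kept their direction and their call under all 18 alternatives. PPIF ranged from -0.47 to -0.45 for KD and from -0.28 to -0.25 for OE against PAR. Over the 7 members and TRAP1, 401 of the 432 results under an alternative stayed on the same side of the threshold, 23 were no longer called and 8 became called. No difference called in either fit changed its sign, and 19 that were called in neither did. The cause was not tested for any of these.

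Holm adjustment called 6220 genes for KD against PAR, 2790 for OE against PAR and 4835 for OE against KD, in place of 11980, 7764 and 10552, and 2 of the members for KD and 1 for OE against PAR. Under it VDAC1 (-0.064, adjusted p = 0.214 for KD; 0.040, adjusted p = 1 for OE against PAR), TSPO (-0.066 and -0.064, adjusted p = 1 for each) and TRAP1 (0.14, adjusted p = 0.0804 for KD against PAR; -0.12, adjusted p = 0.632 for OE against KD) lost their calls.

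Without the variance trend 1 member was called for OE against PAR, as VDAC1 (0.040, adjusted p = 0.0982) and TSPO (-0.064, adjusted p = 0.168) were lost, and TSPO was lost for KD (-0.066, adjusted p = 0.117). With library medians equalised VDAC1 for OE against PAR was lost (0.022, adjusted p = 0.193). Quantile normalization ended the calls of TSPO (-0.056, adjusted p = 0.0683 for KD; -0.041, adjusted p = 0.245 for OE) and brought in VDAC3 for OE (0.077, adjusted p = 0.00379). A floor on the mean rlog (0.051, adjusted p = 0.0271) and the use of p without adjustment, chosen after the data were seen, did the same for VDAC3. With 2 groups only TSPO for OE was lost (-0.064, adjusted p = 0.0514).

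With 20-Mb block medians removed 1 member was called for OE against PAR. VDAC1 (0.0057, adjusted p = 0.762) and TSPO (-0.056, adjusted p = 0.0797) were lost for OE and TSPO for KD (-0.046, adjusted p = 0.119). MICU2 became called for KD (0.083) and for OE against KD (-0.081), and TRAP1 for OE against PAR (0.069, adjusted p = 0.029).

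With each library left out in turn, TSPO ranged from -0.091 to -0.037 for KD against PAR (adjusted p from 0.00486 to 0.252) and from -0.086 to -0.036 for OE against PAR (adjusted p from 0.0122 to 0.341), and VDAC3 for OE against PAR from 0.035 to 0.065 (adjusted p from 0.0293 to 0.264).

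With the replicate number as a replicate block, 12015 genes were called for KD against PAR, 7854 for OE against PAR and 10623 for OE against KD, and 4, 3 and 3 of the members. The deviations of same-numbered libraries of different groups correlated between -0.071 and 0.14 and exceeded 0.1 in 2 of 9 pairs. Those of the 18 other pairs correlated between -0.139 and 0.0748. Correlations over the whole table cannot decide whether the numbers pair the libraries, and the sources used here do not say. Among the other listed genes, 2823 results under an alternative stayed on the same side of the threshold, 138 lost their call, 44 gained it and 7, in 5 genes, changed sign where the difference was called in either fit. A further 80 changed sign where it was called in neither. Holm adjustment ended the calls of MICU3 and SLC8B1 in both comparisons with PAR, and took the calls of the uniporter list from 5 to 1 in each. It took those of the inner membrane list from 8 to 2, the outer membrane list from 5 to 3, the endoplasmic reticulum list from 8 to 3, the cyclophilins from 5 to 1 and the chaperones from 4 to 2 for OE against PAR. For KD against PAR it took the endoplasmic reticulum list from 9 to 5, the cyclophilins from 9 to 4 and the chaperones from 5 to 3.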
